A study of Caenorhabditis elegans with 22 samples.

Results

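The subject is 5 scarce microRNA (miRNA) hairpins of the nematode Caenorhabditis elegans, cel-mir-788, cel-mir-799, cel-mir-1817, cel-mir-1020 and cel-mir-1830, out of 250 hairpins counted. They were chosen by their counts, as low-count hairpins with the largest falls between day 1 and day 20 of age, and are named below without the species prefix. Because the counts of those days chose them, the difference between those days is given as a description with no test. Small RNA was sequenced from whole hermaphrodites of the strain N2. One set of worms carries the label rotenone, an inhibitor of mitochondrial complex I, at 0.039441 µg/ml, and the other the label 2-deoxyglucose, a glucose analogue that blocks glycolysis, for which the labels give no dose. Each set was sampled at days 1, 5 and 10 with 3 libraries a group and at day 20 with 2 libraries a group, which gives 22 libraries in 8 groups. The series title has DMSO in the place of 2-deoxyglucose, and the sample labels, with which the design text agrees, are followed here. No group without a compound was analysed here, so a difference between the sets cannot be assigned to either compound. Whether the replicate libraries stem from separate cultures is not stated in the labels, so a p-value measures only how these libraries spread, which may be technical.

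An miRNA is cut from a hairpin precursor by Drosha and then Dicer, and its mature strand guides an Argonaute protein to target messenger RNAs. A mirtron is a hairpin that fills a short intron and is released by splicing in place of Drosha cutting. In worms the miRNAs lin-4 and let-7 time larval development, and many other hairpins are dispensable one at a time under standard culture. The table holds 1 count per hairpin and library, so reads from the different arms of a hairpin could not be told apart.

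The 5 hairpins lie apart in the genome, in the WBcel235 assembly as annotated by Ensembl. mir-788 spans X:8485294-8485371 on the minus strand, outside protein-coding genes, with the nuclear hormone receptor gene nhr-14 nearest at 9116 bases. mir-799 spans X:8600643-8600735 on the minus strand, also outside protein-coding genes, 115272 bases from mir-788 and 800 bases from F18E9.1. mir-1817 spans I:10869370-10869474 on the minus strand, outside protein-coding genes and 482 bases from Y37F4.6. mir-1020 spans III:10047746-10047815 on the minus strand and covers a 70-base intron of T16G12.1 from its first to its last base, the arrangement of a mirtron. mir-1830 spans II:4371838-4371907 on the minus strand, inside a 786-base intron of paic-1 on the same strand, 204 and 512 bases from the intron's ends. Of 247 hairpins matched to the annotation, 69 (27.9%) lie on X and 63 (25.5%) lie in an intron on the same strand, against 2 of the 5 for each.

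Library totals ran from 664900 to 2233973 counts. The 5 hairpins together gave 231 to 385 counts per library at day 1, 39 to 151 at day 5, 35 to 64 at day 10 and 10 to 29 at day 20, or 0.0159% to 0.0255% of a library at day 1 and 0.000893% to 0.00202% at day 20. Most day 20 values below are single digits, and a value of 0 limits a group to 3 counts over its libraries. These limits cover counting error only, and with no molecular identifiers named in the labels, reads copied by PCR cannot be taken for separate molecules. Levels are also given as CPM, counts scaled to a common library size with TMM factors, as mean ± SD with n = 3 at days 1, 5 and 10 and n = 2 at day 20. The 7 hairpins listed as tissue markers had counts in every library: muscle mir-1, intestinal mir-60, neuronal mir-124, lsy-6, mir-790 and mir-791, and glial mir-228. Also listed, for hypodermis and adult timing, were let-7 and lin-4, which had counts in every library and are not counted among the 7.

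cel-mir-788 had its highest group level at day 5 in rotenone worms and at day 1 in 2-deoxyglucose worms. In rotenone worms it had 32, 26 and 59 counts at day 1, 46, 49 and 51 at day 5, 5, 0 and 1 at day 10, and 2 and 2 at day 20. In CPM the lowest rotenone library of day 5 (26.3) lay just above the highest of day 1 (25.9), and the rotenone libraries of day 10 and day 20 lay far under both ages. In 2-deoxyglucose worms it had 58, 41 and 49 counts at day 1, 14, 5 and 9 at day 5, 5, 5 and 4 at day 10, and 0 and 0 at day 20. Here the ages formed 4 steps, since no library overlapped one of a neighbouring age in CPM. Scaled for library size, rotenone worms held 22.7 ± 5.70 CPM at day 1, 33.7 ± 12.8 at day 5, 2.03 ± 2.71 at day 10 and 1.59 ± 0.159 at day 20. The 2-deoxyglucose worms held 32.9 ± 5.48, 10.0 ± 1.98 and 4.12 ± 1.53 CPM at days 1, 5 and 10, and 0 counts at day 20, which allows up to 1.45 CPM. In the order of the 8 group levels, rotenone day 5 came first and overlapped 2-deoxyglucose day 1, and 2-deoxyglucose day 10 overlapped rotenone day 10, which overlapped rotenone day 20.

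cel-mir-799 was the scarcest of the 5 at day 1. In rotenone worms it had 13, 29 and 30 counts at day 1, 7, 10 and 2 at day 5, 0, 1 and 1 at day 10, and 2 and 2 at day 20. In 2-deoxyglucose worms it had 30, 9 and 19 counts at day 1, 3, 4 and 4 at day 5, 6, 1 and 0 at day 10, and 2 and 1 at day 20. In each set all day 1 libraries stood above all later ones, and from day 5 on no library held more than 10 counts. Rotenone worms held 13.9 ± 3.75 CPM at day 1, 3.76 ± 1.75 at day 5, 0.640 ± 0.554 at day 10 and 1.59 ± 0.159 at day 20. The 2-deoxyglucose worms held 11.8 ± 3.16, 4.50 ± 2.00, 2.10 ± 2.73 and 1.54 ± 0.962 CPM at the same ages. Both day 1 groups overlapped each other and no later group, and each of the 6 later groups overlapped the next in the order of levels.

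cel-mir-1817 was lower at day 5 than at day 1 in both sets and lower again at day 20. In rotenone worms it had 47, 39 and 73 counts at day 1, 12, 25 and 7 at day 5, 5, 6 and 7 at day 10, and 1 and 7 at day 20. In 2-deoxyglucose worms it had 46, 29 and 34 counts at day 1, 11, 6 and 12 at day 5, 12, 7 and 13 at day 10, and 4 and 2 at day 20. Day 1 libraries again stood apart in CPM, while days 5 and 10 overlapped in both sets and days 10 and 20 in rotenone worms. Rotenone worms held 31.4 ± 7.02 CPM at day 1, 8.98 ± 3.86 at day 5, 5.87 ± 0.866 at day 10 and 3.01 ± 3.06 at day 20. The 2-deoxyglucose worms held 23.9 ± 2.57, 10.8 ± 1.86, 8.76 ± 1.41 and 3.07 ± 1.92 CPM. The day 1 groups overlapped each other, both day 5 groups and 2-deoxyglucose day 10 followed with overlapping values, and the 2 groups of day 20 overlapped at the bottom.

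cel-mir-1020, the intron-filling hairpin, kept more of its day 1 level at day 5 than mir-799, mir-1817 and mir-1830 did. In rotenone worms it had 29, 32 and 50 counts at day 1, 22, 25 and 19 at day 5, 7, 13 and 7 at day 10, and 1 and 3 at day 20. In 2-deoxyglucose worms it had 46, 34 and 31 counts at day 1, 18, 12 and 18 at day 5, 7, 5 and 6 at day 10, and 2 and 0 at day 20. Within each set the 4 ages were separate in CPM, each library lying under all libraries of the age before. Rotenone worms held 21.8 ± 1.87 CPM at day 1, 14.7 ± 2.96 at day 5, 8.76 ± 3.08 at day 10 and 1.53 ± 0.966 at day 20. The 2-deoxyglucose worms held 24.7 ± 5.39, 18.3 ± 2.29, 5.12 ± 1.21 and 1.11 ± 1.57 CPM. At days 1, 5 and 20 the compounds overlapped, and at day 10 all 3 rotenone libraries were above all 3 of 2-deoxyglucose.

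cel-mir-1830, inside the paic-1 intron, was the most abundant of the 5. In rotenone worms it had 110, 117 and 173 counts at day 1, 51, 42 and 47 at day 5, 30, 30 and 19 at day 10, and 16 and 15 at day 20. In 2-deoxyglucose worms it had 171, 129 and 156 counts at day 1, 49, 12 and 29 at day 5, 34, 26 and 33 at day 10, and 3 and 7 at day 20. Day 1 libraries stood highest, those of days 5 and 10 overlapped in rotenone and in 2-deoxyglucose worms, and those of day 20 stood lowest. Rotenone worms held 79.2 ± 8.84 CPM at day 1, 32.1 ± 11.4 at day 5, 25.8 ± 6.47 at day 10 and 12.4 ± 1.79 at day 20. The 2-deoxyglucose worms held 102 ± 20.5, 31.2 ± 11.4, 26.3 ± 4.89 and 4.66 ± 1.89 CPM. Both groups of day 5 and both of day 10 overlapped in a chain, and the rotenone libraries of day 20 lay above those of 2-deoxyglucose.

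**Figure D1:**
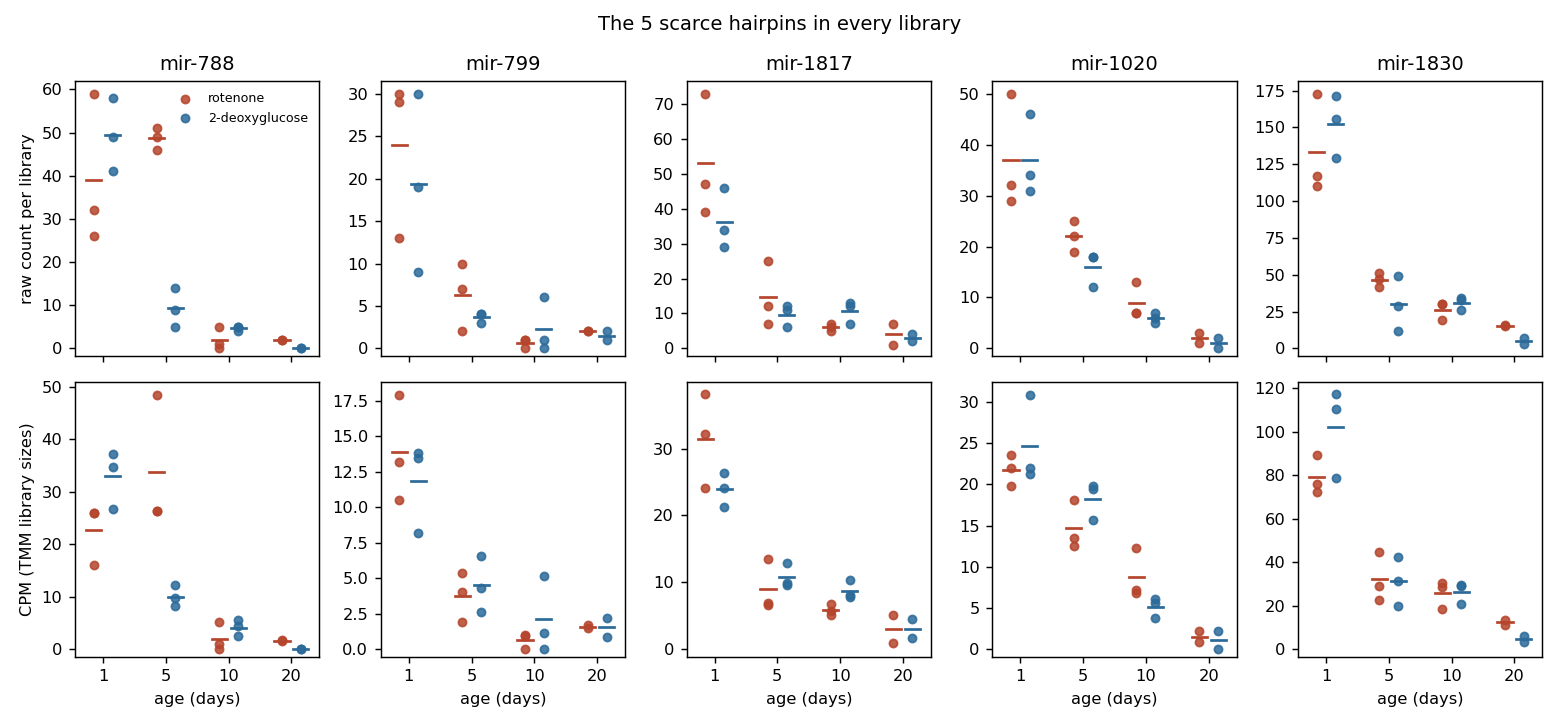
Raw counts (top row) and TMM-scaled CPM (bottom row) of the 5 hairpins against age in days, with rotenone in red and 2-deoxyglucose in blue; each point is a library and each bar the mean of its group. In CPM the day 1 points lie above all later ones in every panel except that of mir-788, where rotenone day 5 reaches 46 to 51 counts while 2-deoxyglucose day 5 has 5 to 14.

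The size of the fall is clearest against the counts that the day 1 level would have given at day 20. For mir-788, 57.7 counts would have been expected over the 2 rotenone libraries of day 20 and 4 were seen. In 2-deoxyglucose worms 65.4 were expected and 0 seen; taking 3 counts over both libraries as the floor, mir-788 was at least 21.8-fold lower. For mir-1020, the intron-filling hairpin, the counts seen were 4 against 54.8 expected in rotenone (13.7-fold) and 2 against 49.1 in 2-deoxyglucose. Those 2 counts lie under the floor of 3 and came from a single library, with the other at 0. The 24.5-fold that they give is therefore not resolved. mir-1830 had 31 counts against 197 expected in rotenone (6.37-fold) and 10 against 202 in 2-deoxyglucose (20.2-fold). mir-1817 had 8 against 78.4 (9.80-fold) and 6 against 48.2 (8.03-fold), and mir-799 had 4 against 35.5 (8.88-fold) and 3 against 25.6 (8.54-fold). The 5 thus ended at 6.93% to 15.7% of their day 1 level in rotenone worms and at 0% to 12.5% in 2-deoxyglucose worms. In whole worms, fewer cells of a type and less RNA per cell cannot be told apart. In neither set did a sequencing lane hold libraries of both day 1 and day 20, so lane and age cannot be told apart here.

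The rule guarantees this direction, so it is set here only beside the other hairpins. The median fitted log2 change of the 5 from day 1 to day 20 was -3.27 in rotenone and -4.37 in 2-deoxyglucose. The medians over all 141 hairpins tested were -0.03 and -0.09. The -4.37 was the same with mir-788 at its bound. However, mir-1020 kept its unresolved -4.51 in both versions, so the 2-deoxyglucose median of the 5 is not firmly resolved. Across all 141, edgeR's quasi-likelihood test with Benjamini-Hochberg adjustment called 29.8% lower in rotenone and 34% lower in 2-deoxyglucose. With total counts in place of TMM the rotenone calls were 40 higher and 53 lower against 48 and 42, and with TMM computed without the abundant hairpins the 2-deoxyglucose calls were 54 and 41 against 40 and 48. The abundant hairpins left out there were the 5 with the highest counts and the members of the mir-35 family. These scalings shifted the median of all hairpins by between -0.18 and 0.11 in rotenone and between -0.09 and 0.23 in 2-deoxyglucose, and left all 5 members below 0. With 2 libraries at day 20, single libraries moved some values: in rotenone, mir-1817 stood at -2.56 without library 1 of day 20 and at -5.11 without library 2, against -3.27 with both. Also in rotenone, mir-1020 was at -4.59 without library 2 of day 20, against -3.70. In 2-deoxyglucose, omitting library 1 or 2 of day 20 gave -3.68 and -2.24 for mir-1817 against -2.98, and -3.66 and -2.26 for mir-799 against -2.99. mir-1020 was at -3.25 without library 2 of day 20, against -4.51, and without library 1 only a library at 0 was left. All of these remained below 0.

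The embryo-enriched mir-35 family moved the other way, and its share of the libraries changed with age. Its 8 members took 12.7% to 19.9% of all counts at day 1 and 25.4% to 29.8% at day 20, and none of the 8 was at 0 in any group. From day 1 to day 20 edgeR called 7 of 8 higher in rotenone and 8 of 8 in 2-deoxyglucose, and the uncalled mir-40 stood at 0.24 in rotenone. The median log2 change of the family was 1.57 in rotenone and 1.90 in 2-deoxyglucose. Of the 7 tissue markers, edgeR called mir-1, mir-60 and lsy-6 lower at day 20 than at day 1 in both sets and mir-228 higher in rotenone. The log2 changes in rotenone and 2-deoxyglucose were -1.97 and -1.69 for cel-mir-1, -1.12 and -1.78 for cel-mir-60, -1.25 and -1.36 for cel-lsy-6 and 0.73 and 0.09 for cel-mir-228. The remaining 3 were not called, at 0.04 and -0.93 for cel-mir-124, 0.40 and 0.18 for cel-mir-790 and -0.26 and -0.28 for cel-mir-791. Outside the 7, the hypodermis and timing hairpins stood at -4.14 and -4.11 for cel-let-7 and -1.24 and -1.35 for cel-lin-4. Together the 7 tissue markers took 8.68% to 12.8% of counts at day 1 and 10.6% to 13.7% at day 20, and the 6 without mir-228 took 0.283% to 0.351% and 0.0990% to 0.125%. What part the mir-35 family, the tissue markers, let-7 or lin-4 have in the falls of the 5 hairpins was not tested.

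The 5 reached their low levels at different ages. As a share of the same set's day 1 level, mir-799 stood at 29.0% and 33.0% at day 5 in rotenone and 2-deoxyglucose, mir-1817 at 30.4% and 46.3%, and mir-1830 at 38.5% and 34.4%. mir-1020 still had 65.3% and 75.3% at that age, and came to 40.7% and 20.8% at day 10 and 7.31% and 4.08% at day 20. For mir-788 the day 5 level was 137% of day 1 in rotenone and 32.9% in 2-deoxyglucose, and the day 10 levels were 8.58% and 12.1%. So mir-799, mir-1817 and mir-1830 were already down to between 29.0% and 46.3% by day 5 in both sets, and mir-1020 was not. mir-1830 then hardly moved to day 10 (33.0% and 26.1%), and mir-1817 kept 37.6% at day 10 in 2-deoxyglucose worms against 18.9% in rotenone worms. These shares use the day 1 libraries that chose the hairpins, so they are given without a test.

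**Figure D2:**
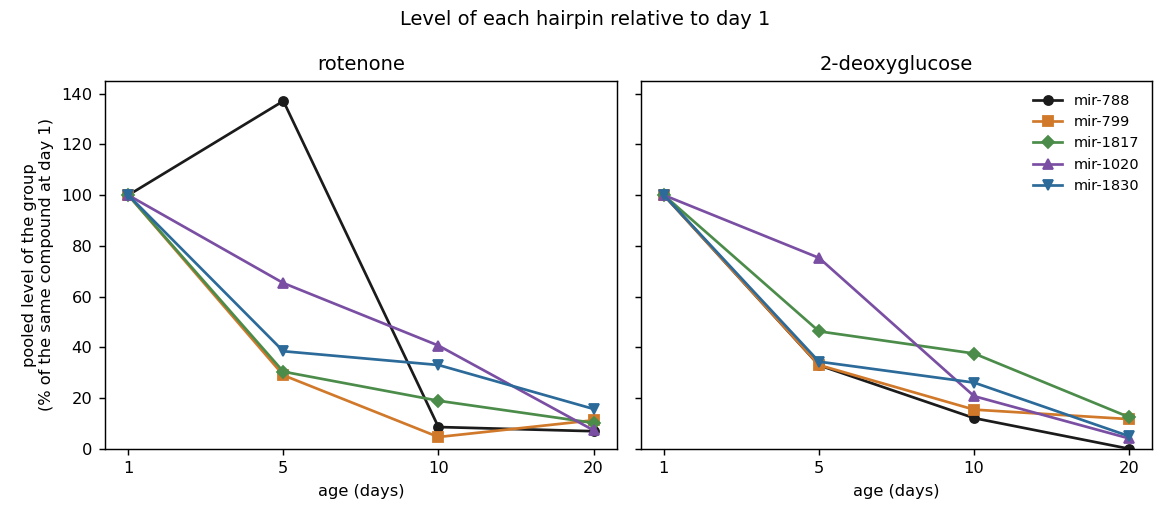
Group level of each hairpin as a percent of its day 1 level in the same compound, against age in days, with rotenone in the left panel and 2-deoxyglucose in the right; each line is a hairpin. mir-788 stands at 137% at day 5 in rotenone, with libraries at 26.3, 26.3 and 48.5 CPM, and at 32.9% in 2-deoxyglucose. mir-1020 keeps the highest or next highest share at day 5 in both panels.

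The rule for the 5 uses days 1 and 20, so the step from day 5 to day 10 was tested, although results from all libraries were known when the 5 were proposed. This step lies within the span over which the 5 were chosen to fall. Lower calls among them were thus favoured in advance in both sets, and the share over all hairpins is not a neutral comparison. In rotenone worms mir-788 and mir-799 were called lower, 2 of 5 where the test put 19.1% of the 141 hairpins lower. The log2 change of mir-788 from day 5 to day 10 was -3.98 ± 0.50 (SE, 95% interval -5.03 to -2.93), lower in 3 of 3 day 10 libraries than in any day 5 library (edgeR quasi-likelihood test, adjusted p 3.33e-06). That call was kept in all 15 alternatives tried, at -5.64 without rotenone library 1 of day 10 and at -3.21 without library 2. Over the same step 2 of the 7 tissue markers, mir-1 and lsy-6, were called lower, and their part was not tested. In the lane that held libraries of both ages, mir-788 went from 51 counts (48.5 CPM) to 5 (5.11 CPM). The drop in mir-799 was -2.47 ± 0.93 (adjusted p 0.0418 by edgeR), with 3 of 3 day 10 libraries below every day 5 library. However, mir-799 passed the low-count filter through its day 1 libraries, which the rule had used, and later held at most 10 counts a library. Its day 10 mean, 0.640 CPM, lies under the 0.979 CPM that 3 counts over the group would give. The drop is thus no independent support for a fall. The call of mir-799 was lost in 10 of 14 alternatives, whose adjusted p ran from 0.0361 to 0.193. Among them were the omissions of rotenone library 1 (0.0700) or 2 (0.138) of day 5 and of library 1 (0.193), 2 (0.125) or 3 (0.0719) of day 10.

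The other 3 did not pass in rotenone. mir-1020 stood at -0.69 ± 0.32 (adjusted p 0.103 by edgeR; range over alternatives 0.0916 to 0.447), mir-1817 at -0.66 ± 0.41 and mir-1830 at -0.26 ± 0.28. The interval of mir-1830 ran from -0.85 to 0.32. The median of the 5 was -0.69 against -0.04 over all 141 hairpins. The 27 lower calls among 49 became 16 among 42 with total counts and 12 among 40 with TMM computed without the abundant hairpins, which moved the median of all hairpins by 0.13 and 0.15. All 5 members remained below 0 under both.

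In 2-deoxyglucose worms the member called lower at day 10 than at day 5 was mir-1020, 1 of 5 where 15.6% of all hairpins were called lower. Its log2 change was -1.84 ± 0.37 (95% interval -2.60 to -1.08), with 3 of 3 day 10 libraries below every day 5 library (edgeR quasi-likelihood test, adjusted p 4.42e-04). The call was kept in 15 of 15 alternatives, which gave -1.96 to -1.61. Over this step 1 of the 7 tissue markers, mir-228, was called lower, and its part was not tested. In the lane with libraries of both ages, mir-1020 went from 18 counts (19.4 CPM) to 7 (6.05 CPM). mir-788 was at -1.40 ± 0.55 and narrowly missed the threshold (adjusted p 0.0550 by edgeR), which it passed with no filter on low counts (0.0370) and by DESeq2 (0.0442), within a range of 0.0370 to 0.196. mir-799 was at -1.06 ± 0.77 (edgeR adjusted p 0.321), and at -2.99 without 2-deoxyglucose library 1 of day 10, where it passed (0.0428). That omission left 1 and 0 counts at day 10, and the limit of the low-count filter given above holds here too. The pass of mir-799 is thus no independent support for a fall. mir-1817 stood at -0.30 ± 0.39 and mir-1830 at -0.34 ± 0.29. The median of the 5 was -1.06, against -0.03 for all hairpins.

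The difference between the compounds in the step after day 5 was tested as well. For mir-788 the day 5 to day 10 change in rotenone minus that in 2-deoxyglucose was -2.58 ± 0.86 on the log2 scale (95% interval -4.37 to -0.79, edgeR adjusted p 0.0456), 1 of 5 where 15.6% of hairpins were called in either direction and 12.1% lower. This value was below 0 in every alternative, but the call was lost in 15 of 21, with adjusted p from 0.0183 to 0.146. In rotenone, the omissions that lost it were library 2 (-2.73) or 3 (-2.33) of day 5 and library 2 (-1.92) or 3 (-2.26) of day 10, while omitting library 1 of day 10 gave -4.35 and kept it. In 2-deoxyglucose they were library 2 (-2.49) or 3 (-2.53) of day 5 and library 1 (-2.45), 2 (-2.31) or 3 (-2.91) of day 10. The other losses were among the changes of scaling, filter, test, lane and groups fitted, so the call did not hang on single libraries alone. For mir-1020 the difference had the opposite sign, 1.15 ± 0.50 (95% interval 0.10 to 2.19), and did not pass (edgeR adjusted p 0.142; 0.0955 to 0.539 over alternatives). mir-799 at -1.41 ± 1.28, mir-1817 at -0.36 ± 0.57 and mir-1830 at 0.07 ± 0.40 did not pass either. Of the 22 hairpins called, 17 were lower, and with TMM computed without the abundant hairpins 4 of 13 were.

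**Figure D3:**
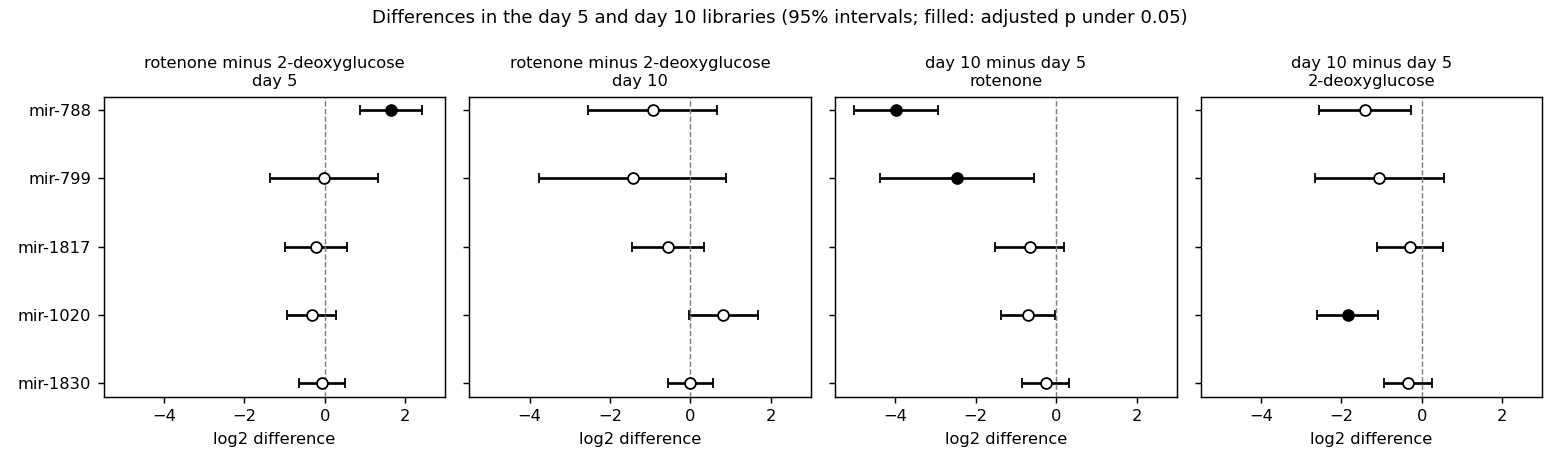
Log2 differences of the 5 hairpins in the tests that use libraries of days 5 and 10, with 95% intervals; filled points passed an adjusted p of 0.05 and open points did not. mir-788 lies at -3.98 from day 5 to day 10 in rotenone and at 1.64 for rotenone against 2-deoxyglucose at day 5, and mir-1020 at -1.84 from day 5 to day 10 in 2-deoxyglucose.

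Compared directly at day 5, mir-788 was higher in rotenone worms, at 26.3 to 48.5 CPM against 8.23 to 12.1. The difference was 1.64 ± 0.37 on the log2 scale, or 3.11-fold, with 3 of 3 rotenone libraries above all of 2-deoxyglucose (edgeR quasi-likelihood test, adjusted p 0.00662). This was 1 of 5 hairpins where 9.93% of the 141 were called, 8.51% higher, or 12 of the 14 calls. The higher calls were 9 of 14 with DESeq2 size factors, 11 of 15 with total counts and 5 of 14 with TMM computed without the abundant hairpins. The last moved the median of all hairpins by -0.18 and gave 1.46 for mir-788. DESeq2 gave no adjusted p for mir-788. Its value lay between 1.39 and 1.82 in the other 14 alternatives, and the call was lost in a fit of the day 5 libraries alone (adjusted p 0.0653). No sequencing lane held day 5 libraries of both compounds, and the same was true at days 1, 10 and 20. Lane and compound therefore cannot be told apart within any age. In a fit over all ages with lane as a factor the day 5 difference of mir-788 was 1.51 (edgeR adjusted p 0.0430). The mir-35 family took 17.7% to 23.1% of counts in the rotenone libraries of day 5 and 14.9% to 15.1% in those of 2-deoxyglucose, and its part was not tested.

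The other 4 did not differ past the threshold at day 5. The differences were -0.03 (95% interval -1.37 to 1.31) for mir-799, -0.21 (-0.98 to 0.56) for mir-1817, -0.33 (-0.93 to 0.28) for mir-1020 and -0.07 (-0.65 to 0.50) for mir-1830. All 4 intervals leave out the estimate of 1.64 for mir-788, but that of mir-799 overlaps the interval of mir-788 (0.87 to 2.41). The hairpins were not tested against each other. At day 10 edgeR called 0 of the 5, where 5.67% of hairpins were called (3 higher and 5 lower with DESeq2 size factors, against 6 and 2). None of the 5 passed an unadjusted p of 0.05 at that age or was called by limma-voom or, where it gave an adjusted p, DESeq2, and mir-1020 came nearest at 0.82 (-0.04 to 1.67). mir-788 was at -0.94 (-2.55 to 0.67), mir-799 at -1.43 (-3.76 to 0.89), mir-1817 at -0.57 (-1.46 to 0.33) and mir-1830 at 0.00 (-0.56 to 0.56). The counts of mir-788 and mir-799 in these libraries were 0 to 6, and their intervals were the widest of the 5.

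The counts of days 1 and 20 chose the 5, so the differences between the compounds at those ages (rotenone minus 2-deoxyglucose, log2) are given with no test. At day 1 they were -0.51 ± 0.29 (SE) for mir-788, 0.20 ± 0.35 for mir-799, 0.40 ± 0.24 for mir-1817, -0.15 ± 0.23 for mir-1020 and -0.36 ± 0.21 for mir-1830. The lowest 2-deoxyglucose library of mir-788 (26.8 CPM) lay just above its highest rotenone library (25.9 CPM), while the others overlapped. With lane as a factor these differences ran from -0.18 (mir-1830) to 0.67 (mir-1817), with mir-788 at 0.003. At day 20 mir-1830 stood at 1.33 ± 0.56, with both rotenone libraries above both of 2-deoxyglucose. For mir-788 the counts at that age were 2 and 2 against 0 and 0, too few for a fold. mir-799 (0.12 ± 1.19), mir-1817 (0.11 ± 0.75) and mir-1020 (0.65 ± 1.03) had 1 to 7 counts in each library, except a single 0 of mir-1020.

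Among all 141 hairpins ordered by mean change over both compounds from the most negative, with mir-788 at its bound, the members held ranks 3 (mir-788), 4 (mir-1020), 6 (mir-1830), 8 (mir-1817) and 9 (mir-799). Here mir-1020 kept its fitted value, which is not resolved in 2-deoxyglucose, so its place ahead of mir-789-1 is not resolved either. Ordered from the lowest day 1 level, mir-799 ranked 20, mir-1020 33, mir-1817 35, mir-788 36 and mir-1830 53. Just outside the 5, among hairpins no more abundant at day 1 than mir-1830, stood mir-789-1 at a mean log2 change of -3.98 (84.6 CPM at day 1), mir-789-2 at -3.46 (85.1 CPM) and mir-58b, a relative of bantam, at -2.94 (19.6 CPM). Their counts went from 838 to 24, from 830 to 35 and from 193 to 12 between all day 1 and all day 20 libraries. mir-789-1 and mir-789-2 were thus as far down as the members, from a level close to that of mir-1830, and are not among the 5. The first ranks were held by mir-237 (-4.56), a relative of lin-4, and let-7 (-4.13), which are more abundant. Of the other 48 hairpins no more abundant than mir-1830, edgeR called 10 (20.8%) lower and 18 higher in rotenone at day 20 against day 1, and 11 (22.9%) lower and 15 higher in 2-deoxyglucose.

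**Figure D4:**
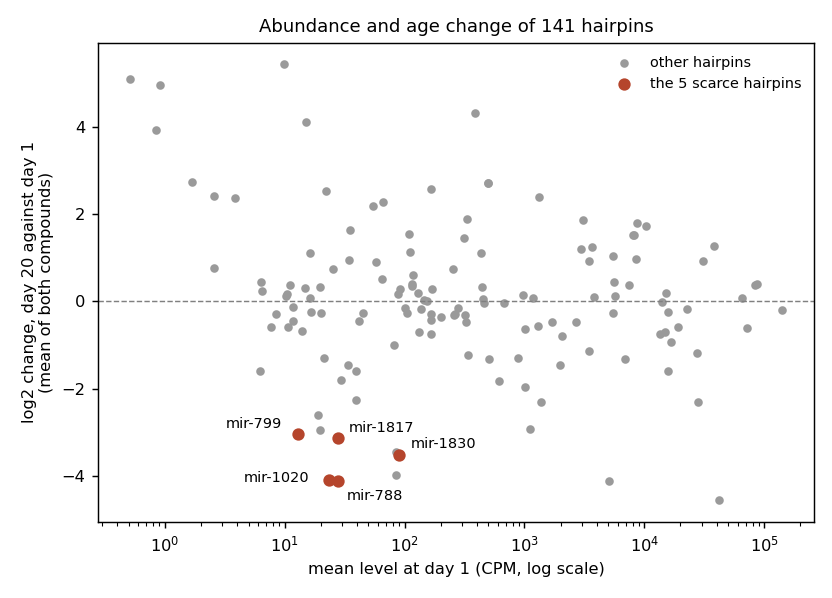
Mean log2 change from day 1 to day 20 over both compounds against mean day 1 level in CPM on a log axis, for 141 hairpins; the 5 members are red and named, and mir-788 is drawn at its bound in 2-deoxyglucose. The 5 lie between -3.03 and -4.10, while most other hairpins of like abundance lie nearer 0. mir-1020 is drawn at its fitted value, which is not resolved in 2-deoxyglucose.

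The hairpins whose course over the 8 group means was most like that of each member were listed by Pearson correlation of log2 CPM. Group means share libraries across hairpins and rest on small counts, so these values describe 8 points and nothing more. For mir-788 they were lsy-6, which sets the left and right fate of a taste neuron pair (r = 0.97), and mir-234 (0.95). For mir-799 they were mir-235, a relative of miR-92 (0.99), and mir-230 (0.96), and for mir-1817 let-7 (0.98) and mir-789-2 (0.97). For mir-1020 they were mir-789-1 (0.98) and lin-4 (0.97), and for mir-1830 lin-4 (0.96) and mir-2212 (0.96). Among the 5 themselves r ran from 0.74 (mir-799 and mir-1020) to 0.93 (mir-1817 and mir-1830).

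Hairpins with names that neighbour those of the members moved in both directions between days 1 and 20. Of mir-784 to mir-800, members left out, 14 of 16 were tested with edgeR. It called 4 higher and 3 lower in rotenone and 2 higher and 4 lower in 2-deoxyglucose, with median log2 changes of -0.07 and -0.36 against -0.03 and -0.09 for all hairpins. Of mir-1817 to mir-1834, 6 of 14 were tested, with 2 called higher and 1 lower in rotenone and 1 higher and 1 lower in 2-deoxyglucose (medians 0.11 and 0.41). Of mir-1018 to mir-1022, 2 were tested and both were called higher in both sets (medians 2.57 and 3.10). Grouped by position instead, 30 of the other 61 hairpins in an intron on the same strand, the place of mir-1020 and mir-1830, were tested, with 5 called up and 9 down in rotenone and 3 up and 10 down in 2-deoxyglucose. Of the other 140 hairpins outside protein-coding genes, the place of mir-788, mir-799 and mir-1817, 81 were tested, with 36 called up and 20 down in rotenone and 29 up and 24 down in 2-deoxyglucose. The medians of the intronic group were -0.04 and -0.15 and those of the other 0.20 and 0.12.

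The annotation has 8 hairpins that fill an intron from end to end, mir-62, mir-1019, mir-1020, mir-4816, mir-4920, mir-4924, mir-4926 and mir-4927, of which the low-count filter left mir-62 and mir-4816 besides mir-1020. From day 1 to day 20 cel-mir-62 rose in rotenone by 0.94 on the log2 scale (edgeR adjusted p 0.00285) and stood at 0.56 in 2-deoxyglucose (0.0887). cel-mir-4816 stood at -0.35 in rotenone and 0.69 in 2-deoxyglucose and was not called in either. The mirtron mir-1019 had 3 counts in all 22 libraries together. mir-1018, which is listed as a mirtron but lies outside protein-coding genes in this annotation, rose by 3.39 and 4.85.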

How the data were processed

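For 250 hairpins in 22 libraries the authors deposited raw counts, with 0 columns of other samples. Libraries were made with a TruSeq kit, per the labels' protocols. The tools named, without roles, were BWA 0.7.12-r1039, SAMtools 1.3.1-9, Trimmomatic 0.36 and CASAVA 1.8.4, per the submitters' processing notes. Build, strand use and the handling of multiply mapped reads: not given in the sources used here. Chi-square per degree of freedom between libraries of a group was 12.1 to 327.5, so replicates differed well beyond counting noise; libraries of different groups were not compared this way.

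The analysis used R 4.3.3 and edgeR 4.0.16, in which filterByExpr by group (minimum count 10, minimum total 15) kept 141 hairpins and all 5 members, and 18 hairpins had no count. TMM scaling, 1 model over the 8 groups, the robust quasi-likelihood test and Benjamini-Hochberg adjustment over the 141 at 0.05 followed, and the code was tested on simulated data. DESeq2 1.42.0, limma 3.58.1 (voom), other scalings and filters, lane as a factor and the omission of single libraries were the alternatives. Library numbers follow record order. The members and lists were chosen with earlier results of these data known. The text names the members, the listed mirtrons, the 3 hairpins just outside the rule and, for each member, the 2 with the highest correlation. The tissue markers, let-7 and lin-4 as markers, and the mir-35 family were listed at the same time. By contrast, mir-237, let-7 as a leading fall, the other intron-filling hairpins and the grouping by position were chosen after their values were seen. Hairpins sharing a seed were not analysed here. The table read for genome positions was the Ensembl annotation of WBcel235, in which 247 of 250 hairpins were matched by name.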

Additional observations from a re-analysis of the deposited data

Results flagged for a closer look

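The change of mir-788 from day 5 to day 10 differed between the compounds by -2.58 on the log2 scale (rotenone minus 2-deoxyglucose), past the threshold in a test of the difference itself. At day 5 the rotenone libraries held 46, 49 and 51 counts and the 2-deoxyglucose libraries 14, 5 and 9, and at day 10 they held 5, 0 and 1 against 5, 5 and 4. Rotenone minus 2-deoxyglucose was thus 1.64 at day 5 and -0.94 at day 10 on the log2 scale, and the adjusted p of the difference was 0.0456 by edgeR. The call was lost in 15 of 21 alternatives, with values from -4.35 to -1.92 and adjusted p from 0.0183 to 0.146.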

How the results depend on the processing

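Of 389 alternative values for the 25 tested comparisons of the 5 hairpins, 360 kept their direction and side of the threshold or stayed uncalled, 26 lost a call, 3 gained one and 0 reversed a call, and all 140 alternatives of day 20 against day 1 stayed below 0. DESeq2 gave no adjusted p for 6 values, which are left out. Counts of called hairpins moved more. For the compounds at day 5 (14 by edgeR), no filter gave 9 and a fit of the compared groups alone 0 (12 with an unadjusted p under 0.05, while over all groups DESeq2 called 16 and limma-voom 11). At day 10 (8) TMM without the abundant hairpins gave 5, no filter 4, and the stricter filter and the compared groups alone 13 each. At day 20 (1) DESeq2 size factors gave 3, the stricter filter 7, DESeq2 4, lane 2 and the compared groups alone 18. For day 10 against day 5 in rotenone (49) the compared groups alone gave 19. For the difference of that change (22) total counts gave 14, TMM without the abundant hairpins 13, no filter 10, lane 5 and the compared groups alone 3. The causes were not tested. Omitting single libraries gave 7 to 11 calls at day 1 (16 with all), 10 to 26 at day 5, 0 to 10 at day 10, 1 to 1 at day 20, 31 to 40 and 34 to 43 for day 10 against day 5 in rotenone and 2-deoxyglucose, 2 to 26 for the difference, and 80 to 86 and 79 to 85 for day 20 against day 1. The 0 at day 10 came without 2-deoxyglucose library 3, with 26 at unadjusted p under 0.05. Where day 20 kept a lone library, it was assumed to vary like the other groups. No paired analysis was possible because the labels carry no replicate numbers. Groups with only single-digit counts limit mir-788 from day 10 on, and mir-799 from day 5 on in 2-deoxyglucose and day 10 on in rotenone. At day 10 they also limit mir-1817 in rotenone and mir-1020 in 2-deoxyglucose. At day 20 they limit mir-1817 and mir-1020 in both sets and mir-1830 in 2-deoxyglucose.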
